A study of Mus musculus with 4 samples.

Results

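The 10 genes described here, normally read in germ cells, were followed through the differentiation of female mouse embryonic stem cells (mESCs), with and without hairpins against Smarca4, an ATPase of the nucleosome-remodelling BAF complex. They are Dazl, Ddx4, Mael, Tex19.1, Stk31, Hormad1, Sycp1, Sycp3, Brdt and Tex101. All were taken by symbol from a table of 25965 genes, and each symbol matched 1 row. The cells were an F1 cross of the FVB and CAST strains, grown undifferentiated in 2i medium and then moved into serum medium. RNA-seq was done on 4 libraries, 1 per group. The day 0 library came from undifferentiated cells. The other 3 came from day 6 of differentiation, after viral transduction on day 2 and puromycin from day 3, with the non-silencing hairpin Nons or with the Smarca4 hairpins Smarca4.4 or Smarca4.6. Day 0 therefore differed from Nons in transduction and selection as well as in time. Groups follow the sample titles, since another label field names a Smarcc knockdown for all 3 day 6 libraries, Nons included.

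Many germline genes have promoters rich in CpG that carry DNA methylation in somatic cells. That methylation is laid down after implantation, largely by Dnmt3b, and mESCs kept in 2i medium are low in DNA methylation. Before methylation and beside it, a Polycomb complex named PRC1.6 holds many of these genes silent, and its subunits E2F6 and the pair MGA and MAX recognise E2F and E-box motifs. Methylation was not measured in these libraries, so the name of the gene set was not tested here.

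Depth ran from 18599402 reads at day 0 to 47143739 in Smarca4.4, and 3 reads, the least taken as detected, correspond to 0.0636 to 0.161 CPM, the reads of a gene scaled to library size. All 10 genes were above that floor in all 4 libraries, the lowest count being 13 reads for Tex101 in Smarca4.6. With 1 library per group there is no spread between replicates and no p-value. Intervals in brackets are exact 95% intervals from the read counts and cover counting error only. In these mixed cultures, fewer cells that express a gene and less RNA per cell cannot be told apart. The ES cell markers Nanog and Esrrb stood at 999 and 459 CPM at day 0 and at 60.7 and 8.54 CPM in Nons, whereas Pou5f1 stood at 724 and 915 CPM.

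Smarca4 itself was at 244 CPM at day 0 and, at day 6, at 229 with Nons, 131 with Smarca4.4 and 174 with Smarca4.6. The hairpin libraries thus held 57.3% (55.6% to 59.2%) and 75.8% (73.5% to 78.3%) of the Nons level, a partial loss in each. The target sites are shown because the hairpins define the comparison. They are written 5′ to 3′ on the Smarca4 strand and were matched to GENCODE M21 transcripts.
Smarca4.4: actggagtcagacagtaataaa
Smarca4.6: actgatgaacactattatgcaa
The Smarca4.4 site lies in an untranslated exon (mm10 chr9:21703327-21703348, plus strand) and the Smarca4.6 site in a coding exon (chr9:21670504-21670525, plus strand). Each of these 22 bases was found whole in Smarca4 transcripts and in those of no other gene, so in 0 of the 10 germline genes. The Nons target was found in none.

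The promoters of the 10 genes were compared first, since no promoter feature was directly used to choose them. The choice is still not independent of these features. Genes known for control by methylation often have promoters with much CpG, and many are held by PRC1.6, whose subunits recognise E-box and E2F motifs. All 10 were in the RefSeq promoter table (GRCm38.p6), and the 250 bases before the start were read. The ratio of observed to expected CpG ranged from 0.64 (Sycp3, Tex101 and Tex19.1) to 1.00 (Ddx4). It was at least 0.6 in 10 of 10, against 34.0% of 32841 promoters in the table and 65.3% of promoters of genes with a mean log2 CPM of at least 0. In a further list of germline genes it was at least 0.6 in 20 of 41 promoters, or 48.8%. Those 41 promoters belong to 34 gene symbols and the 32841 to 27018, so a gene can count more than once in these shares. Each of the 10 genes was read at 1 start, although Hormad1 and Stk31 have 2 RefSeq starts. The E-box core CACGTG, which reads the same on both strands, was present in 7 of 10. It was present in 6.02% of all promoters, in 9.49% of those with a CpG ratio of at least 0.6 and in 11 of the 41 of the further germline list. The E2F core TCCCGC, searched on both strands as TCCCGC or GCGGGA, was present in 5 of 10, against 16.9% of all promoters, 37.5% of the CpG-rich ones and 10 of the 41. In the 10 promoters no match of one motif overlapped a match of the other.

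The upstream sequences of 5 genes are shown, 5′ to 3′ on the strand of each gene, with both cores in capitals. Hormad1 and Sycp3 each had 2 E-boxes and an E2F core, Ddx4 had the most CpG, Stk31 had an E-box without an E2F core, and Dazl had neither.
Hormad1: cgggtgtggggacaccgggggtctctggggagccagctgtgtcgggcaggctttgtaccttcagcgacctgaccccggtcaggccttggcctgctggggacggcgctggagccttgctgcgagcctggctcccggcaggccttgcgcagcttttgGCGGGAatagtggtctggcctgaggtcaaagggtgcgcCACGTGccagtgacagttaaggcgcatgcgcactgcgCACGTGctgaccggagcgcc
Sycp3: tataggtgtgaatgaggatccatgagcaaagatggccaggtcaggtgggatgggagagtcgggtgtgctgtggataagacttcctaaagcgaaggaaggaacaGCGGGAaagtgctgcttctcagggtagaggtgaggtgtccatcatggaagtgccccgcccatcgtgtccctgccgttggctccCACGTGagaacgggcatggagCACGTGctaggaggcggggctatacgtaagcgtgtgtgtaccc
Ddx4: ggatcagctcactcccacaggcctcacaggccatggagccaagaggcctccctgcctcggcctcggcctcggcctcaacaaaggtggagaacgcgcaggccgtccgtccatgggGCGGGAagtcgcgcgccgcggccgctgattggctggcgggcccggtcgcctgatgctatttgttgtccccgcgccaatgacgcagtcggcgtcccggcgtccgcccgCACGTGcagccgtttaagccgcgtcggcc
Stk31: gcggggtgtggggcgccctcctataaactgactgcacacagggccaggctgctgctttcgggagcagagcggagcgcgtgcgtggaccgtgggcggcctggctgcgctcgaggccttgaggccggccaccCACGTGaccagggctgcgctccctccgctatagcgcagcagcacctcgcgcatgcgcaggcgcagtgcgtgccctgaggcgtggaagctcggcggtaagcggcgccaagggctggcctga
Dazl: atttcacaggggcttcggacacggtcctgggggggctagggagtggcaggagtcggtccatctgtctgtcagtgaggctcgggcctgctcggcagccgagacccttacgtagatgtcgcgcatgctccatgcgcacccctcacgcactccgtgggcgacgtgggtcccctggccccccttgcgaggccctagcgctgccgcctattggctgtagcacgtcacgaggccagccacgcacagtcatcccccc
They come from GRCm38.p6, Hormad1 at chr3:95559427-95559676 (plus strand), Sycp3 at chr10:88459337-88459586 (plus), Ddx4 at chr13:112652311-112652560 (minus), Stk31 at chr6:49395354-49395603 (plus) and Dazl at chr17:50293621-50293870 (minus). The E-boxes of Hormad1 began at positions -57 and -20 from the start, those of Sycp3 at -64 and -43, and that of Ddx4 at -29. The 3 genes without an E-box in this window were Dazl, Tex19.1 and Tex101. A match is a description of the sequence and not evidence of binding.

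**Figure D1:**
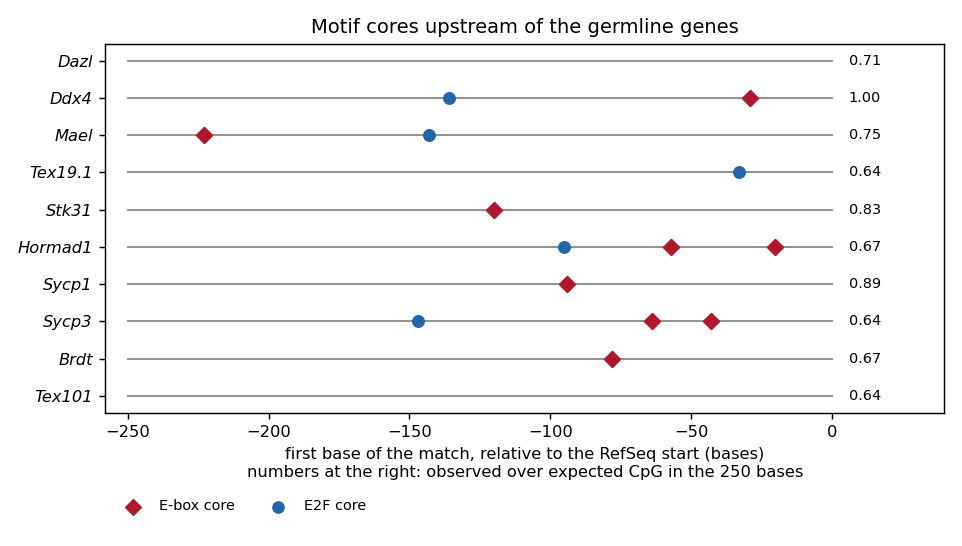
Positions of the E-box core (red diamonds) and the E2F core (blue circles) in the 250 bases before the RefSeq start of each of the 10 genes, with distance from the start in bases on the x axis. The number at the right is the ratio of observed to expected CpG, which lies between 0.64 and 1.00, and the 3 genes without a diamond are Dazl, Tex19.1 and Tex101.

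Loss on differentiation was asked first, by comparing Nons day 6 with day 0. At day 6 the genes took 3 patterns. Dazl, Hormad1, Stk31, Tex19.1 and Brdt fell by at least 2-fold, Sycp3 and Mael rose by at least 2-fold, and Ddx4, Sycp1 and Tex101 differed by less. So 5 of 10 fell, where 12.3% of 13264 genes with a mean log2 CPM of at least 0 did, and 2 of 10 rose, where 19.6% did. Of the 10 genes, 9 passed that filter on mean level and Tex101 did not. The median difference on the log2 scale was -0.85 for the 10 genes and 0.03 for all genes tested.

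Summed over the 10 genes, the level was 1249 CPM at day 0 and, at day 6, 163 with Nons, 187 with Smarca4.4 and 131 with Smarca4.6. The summed level in Nons was 13.0% of that at day 0, and those with Smarca4.4 and Smarca4.6 were 14.98% and 10.5%. Dazl alone made up 62.0% of the sum at day 0. Without Dazl the sums were 474, 155, 177 and 126 CPM in the same order. At day 6 Sycp3 made up 27.4% to 36.4% of the sum.

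**Figure D2:**
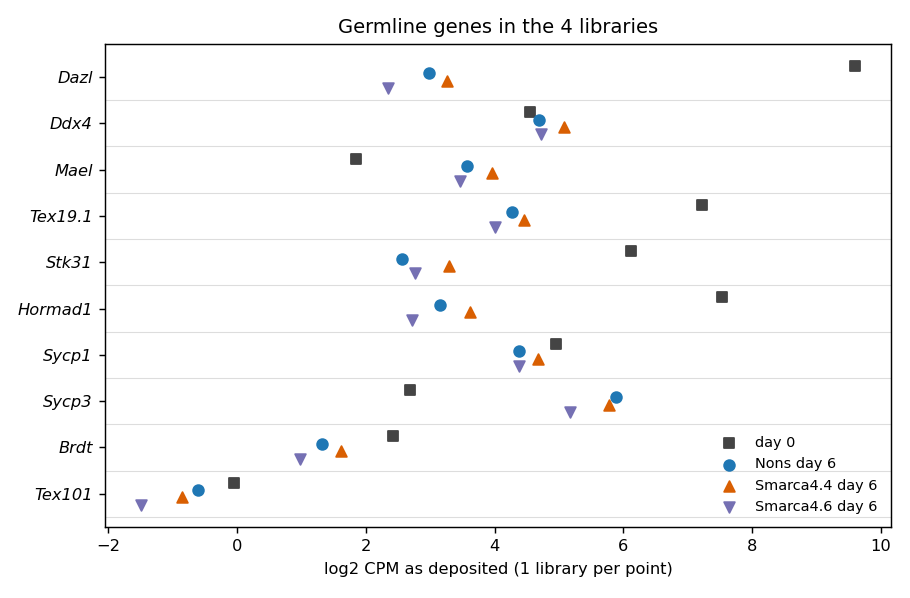
Deposited log2 CPM (x axis) of the 10 germline genes in the 4 libraries, 1 point per library and no replicates. The day 0 square lies far to the right of the day 6 symbols for Dazl, Tex19.1, Stk31 and Hormad1, and to their left for Mael and Sycp3.

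Dazl and Ddx4 encode RNA-binding proteins of the germ line. Dazl (mm10 chr17:50279394-50293599, minus strand), which controls translation of germ cell mRNAs, was at 775 CPM at day 0 and, at day 6, at 7.89 with Nons, 9.63 with Smarca4.4 and 5.10 with Smarca4.6. All 3 day 6 libraries lay far below day 0. The Nons difference from day 0 was -6.62 on the log2 scale (-6.77 to -6.47), which leaves 1.02% of the day 0 level (0.915% to 1.13%). Of the 13264 genes tested, 10 had a lower difference. Ddx4 (chr13:112598333-112652310, minus strand), the DEAD-box helicase also called Vasa, was at 23.5 CPM at day 0 and, at day 6, at 25.8 with Nons, 33.9 with Smarca4.4 and 26.4 with Smarca4.6. Its log2 difference between Nons and day 0 was 0.13 (-0.03 to 0.29), an interval that includes 0.

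Mael and Tex19.1 act in the control of transposons, and Stk31 belongs to the Tudor proteins, many of which serve that pathway in germ cells. Mael (chr1:166201385-166238744, minus strand), a factor of the piRNA pathway, was at 3.60 CPM at day 0 and, at day 6, at 11.9 with Nons, 15.6 with Smarca4.4 and 11.0 with Smarca4.6. It was higher in each day 6 library than at day 0, and in Nons by 1.73 on the log2 scale (1.36 to 2.11). Tex19.1 (chr11:121146143-121148319, plus strand), which restrains retrotransposons and is also active in mESCs and placenta, was at 149 CPM at day 0 and, at day 6, at 19.3 with Nons, 22.1 with Smarca4.4 and 16.1 with Smarca4.6. It fell by 2.95 on the log2 scale in Nons (-3.06 to -2.84), to 12.9% of day 0. Tex19.1 has a close paralogue, Tex19.2, so reads of the pair may have been split between them, and Tex19.2 went from 22.5 CPM at day 0 to 0.852 in Nons. Stk31 (chr6:49395604-49469501, plus strand), a Tudor-domain protein with a kinase-like region, was at 69.8 CPM at day 0 and, at day 6, at 5.90 with Nons, 9.78 with Smarca4.4 and 6.77 with Smarca4.6. It fell by 3.56 in Nons (-3.76 to -3.37), to 8.45% of day 0.

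Hormad1, Sycp1 and Sycp3 build the chromosome axis and the synaptonemal complex of meiosis, and they moved in different directions. Hormad1 (chr3:95559677-95587671, plus strand), which marks unsynapsed axes, was at 184 CPM at day 0 and, at day 6, at 8.89 with Nons, 12.3 with Smarca4.4 and 6.60 with Smarca4.6. It fell by 4.37 in Nons (-4.52 to -4.22), to 4.83% of day 0. Sycp1 (chr3:102818499-102936100, minus strand), the transverse filament protein, was at 31.1 CPM at day 0 and, at day 6, at 20.8 with Nons, 25.5 with Smarca4.4 and 20.9 with Smarca4.6. Its log2 difference between Nons and day 0 was -0.58 (-0.73 to -0.43), under 2-fold. Sycp3 (chr10:88459569-88473236, plus strand), a component of the axis, was at 6.45 CPM at day 0 and, at day 6, at 59.2 with Nons, 54.6 with Smarca4.4 and 35.9 with Smarca4.6. It rose by 3.20 in Nons (2.93 to 3.47), or 9.17-fold.

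The Sycp3 value is uncertain. In GENCODE M21, 660 of its 1264 exon bases are shared with exons of Chpt1, an enzyme gene of phosphatidylcholine synthesis on the opposite strand, and whether reads were counted by strand is not given in the sources used here. Chpt1 was at 19.5 CPM at day 0 and, at day 6, at 36.4 with Nons, 38.8 with Smarca4.4 and 29.2 with Smarca4.6. The log2 difference of Chpt1 between Nons and day 0 was 0.90 (0.73 to 1.07), and how far its reads enter the Sycp3 value was not tested. The other 9 genes share no exon base with another gene in that annotation. Without Sycp3 the summed levels were 1242 CPM at day 0 and 104, 132 and 95.2 CPM at day 6, with Nons first and Smarca4.6 last.

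Brdt and Tex101 had the lowest levels per length of exon at day 0 and in Nons. Brdt (chr5:107331159-107387058, plus strand), the testis member of the BET bromodomain family, was at 5.38 CPM at day 0 and, at day 6, at 2.49 with Nons, 3.05 with Smarca4.4 and 1.97 with Smarca4.6. It fell by 1.11 in Nons (-1.51 to -0.71). Tex101 (chr7:24668012-24672050, minus strand), a surface glycoprotein of germ cells, had 18 reads at day 0, and 30 with Nons, 26 with Smarca4.4 and 13 with Smarca4.6 at day 6. Those are 0.968, 0.656, 0.552 and 0.356 CPM. With so few reads the interval of its difference between Nons and day 0, -1.45 to 0.37 around -0.56, spans more than 2-fold lower and some increase, and no change was detectable.

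Levels of different genes were set side by side per kilobase of exon. At day 0 Dazl (203 CPM per kb), Hormad1 (106) and Tex19.1 (79.7) led, followed by Stk31 (21.6). Sycp1 (8.75, 8.06 to 9.50) and Ddx4 (7.81, 7.10 to 8.58) had overlapping counting intervals, as did Brdt (1.05, 0.855 to 1.28) and Tex101 (0.584, 0.346 to 0.923) at the bottom of the order. In Nons the order began with Sycp3 (46.8 CPM per kb), Tex19.1 (10.3), Ddx4 (8.56) and Mael (6.87). Dazl moved from rank 1 at day 0 to rank 7 there, at 2.07 CPM per kb, beside Stk31 at 1.82, whose interval overlaps with that of Dazl.

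A further list of 40 germline genes also held genes that fell and genes that rose. Of the 27 that passed the filter, 13 fell and 6 rose by at least 2-fold from day 0 to Nons. Of all genes tested, 12.3% fell and 19.6% rose, so the rises lay near the share of all genes. The median log2 difference of the list was -0.91, with a range from -5.17 to 4.43. Stra8, the gatekeeper of meiotic entry, went from 17.3 CPM at day 0 to 0.262 in Nons, a log2 difference of -6.04 (-7.01 to -5.22). Tex14, a protein of the intercellular bridge, went from 44.9 to 1.25 CPM, a difference of -5.17. Tdrd1, a Tudor protein of the piRNA pathway, rose from 0.323 CPM (6 reads) to 6.95 CPM, a difference of 4.43 (3.29 to 5.89). Stra8 did not reach the filter, because its level at day 6 was so low.

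Factors of primordial germ cells were counted to see whether germ cell precursors moved along with these genes. Of 10 such factors 8 passed the filter, of which 5 fell and 1 rose by at least 2-fold, with a median of -2.53. Prdm14 went from 73.0 to 0.350 CPM, Alpl from 355 to 8.11, Kit from 193 to 7.23 and Dppa3 from 71.7 to 11.3. These 4 are also read in undifferentiated mESCs. The 1 that rose was Itgb3, from 6.29 to 18.4 CPM, a log2 difference of 1.55 (1.27 to 1.84). Dnd1 was at 0.28 (-0.04 to 0.60), an interval that includes 0. Nanos3, another factor of this list, had 0 reads at day 0, and 1 with Nons, 1 with Smarca4.4 and 2 with Smarca4.6 at day 6. Of 10 ES cell markers, 8 fell by at least 2-fold, with a median of -3.67, and of 8 mesenchymal and muscle markers, 6 rose and 1 fell. The shares over all genes tested were 12.3% lower and 19.6% higher. Markers of the somatic cells of the testis summed to 3.87 CPM over 8 genes at day 0 and to between 18.7 and 20.5 CPM at day 6, most of it Wt1, which mesenchymal and epicardial cells also read. The part of any of these cell types in the germline gene levels was not tested.

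**Figure D3:**
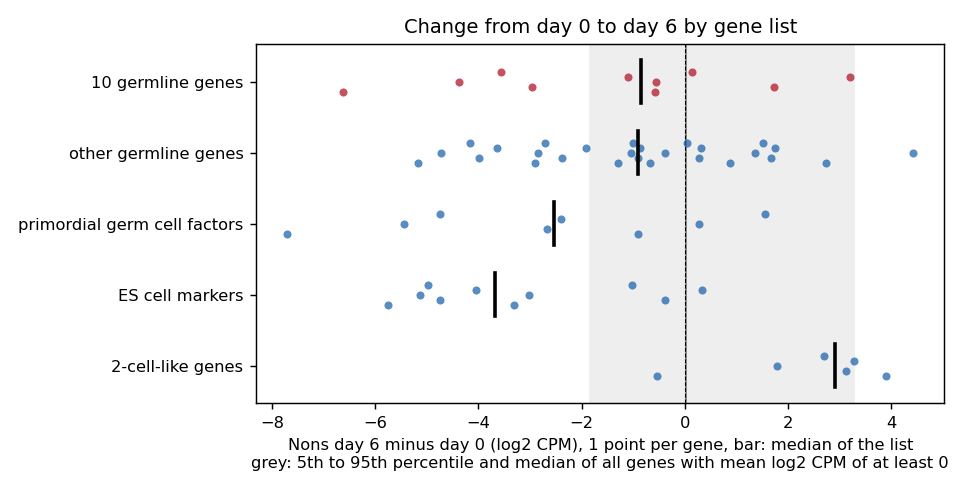
Log2 difference between Nons day 6 and day 0 (x axis), 1 point per gene, for the 10 germline genes (red) and for 4 other lists (blue, genes with a mean log2 CPM of at least 0). The grey band spans the 5th to 95th percentile of all 13264 genes tested, the black bar is the median of each list (-0.85 for the 10 germline genes, -0.91 for the other germline genes), and points of both germline lists lie on either side of 0.

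Writers of DNA methylation and the repressors of germline genes were read beside the 10 genes. Dnmt3b rose from 80.8 CPM at day 0 to 509 in Nons, a log2 difference of 2.66 (2.58 to 2.73), and its cofactor Dnmt3l rose from 67.3 to 247 CPM. The eraser Tet2 fell from 154 to 11.6 CPM, and Zfp57, a zinc finger protein of imprint maintenance, from 141 to 27.0 CPM. The maintenance pair Dnmt1 and Uhrf1 fell by 1.17 and 1.58 on the log2 scale. In all, 6 of 12 genes of the methylation machinery fell and 2 rose by at least 2-fold, where 12.3% and 19.6% of all genes tested did. Of 17 repressor genes that passed the filter, 1 fell by at least 2-fold and 0 rose. That 1 was Mga, a DNA-binding subunit of PRC1.6, at 434 CPM at day 0 and 214 in Nons. E2f6 differed by 0.19 (0.05 to 0.32), Pcgf6 by -0.71 and Max by -0.42, all on the log2 scale.

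Retention with the Smarca4 hairpins was asked next, by setting each hairpin library beside Nons at day 6. None of the 10 genes differed from Nons by 2-fold with Smarca4.4 or with Smarca4.6. Over all genes tested, 0.882% were at least 2-fold higher and 0.309% lower in Smarca4.4, and 1.03% higher and 0.799% lower in Smarca4.6. The shares past 2-fold with both hairpins were 0.392% higher and 0.121% lower. Below 2-fold, the hairpins pointed in different directions. In Smarca4.4, 7 of the 10 genes had an interval above 0, 1 (Sycp3) had one below 0 and 2 had intervals that include 0. In Smarca4.6, 0 had an interval above 0, 4 (Dazl, Hormad1, Tex19.1 and Sycp3) had one below 0 and 6 had intervals that include 0. The share of all genes tested with an interval above 0 was 34.4% in Smarca4.4 and 39.6% in Smarca4.6, and with one below 0 it was 24.3% and 24.4%. Both comparisons share the Nons library.

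The median log2 difference from Nons was 0.30 in Smarca4.4 and -0.30 in Smarca4.6, against 0.04 and 0.06 over all genes tested. Stk31 differed most in Smarca4.4, by 0.73 (0.51 to 0.95), or 166% of Nons, and 317 of the 13264 genes tested had a higher difference. In Smarca4.6 its difference was 0.20 (-0.06 to 0.45). Hormad1 was higher in Smarca4.4, by 0.47 (0.29 to 0.66), and lower in Smarca4.6, at -0.43 (-0.67 to -0.20). Dazl was at 0.29 (0.08 to 0.49) with Smarca4.4 and at -0.63 (-0.89 to -0.37) with Smarca4.6. Tex19.1 showed the same opposition at a smaller size, 0.20 (0.06 to 0.33) and -0.26 (-0.41 to -0.10). These 3 genes lay above Nons in Smarca4.4 and below it in Smarca4.6, each with intervals that exclude 0, as did 1.91% of all genes tested.

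Ddx4, Mael and Sycp1 were higher in Smarca4.4, by 0.39, 0.39 and 0.30, and within counting error of Nons in Smarca4.6, at 0.03 (-0.09 to 0.15), -0.11 (-0.30 to 0.08) and 0.01 (-0.13 to 0.15). Centring on the autosomal median turned the sign of the Ddx4 and Sycp1 values in Smarca4.6. Sycp3 was the 1 gene below Nons in both with intervals that exclude 0, at -0.12 (-0.20 to -0.04) and -0.72 (-0.82 to -0.63), and Chpt1 on the other strand was at 0.09 (-0.005 to 0.19) and -0.32 (-0.43 to -0.21). Genes below 0 in both with such intervals made up 15.5% of all genes tested. Brdt was at 0.29 (-0.07 to 0.66) and -0.34 (-0.78 to 0.10), and Tex101 at -0.25 (-1.07 to 0.56) and -0.88 (-1.94 to 0.10), so neither was distinguishable from Nons at this depth. No gene of the 10 was above Nons in both with intervals that exclude 0, where 24.8% of all genes tested were.

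**Figure D4:**
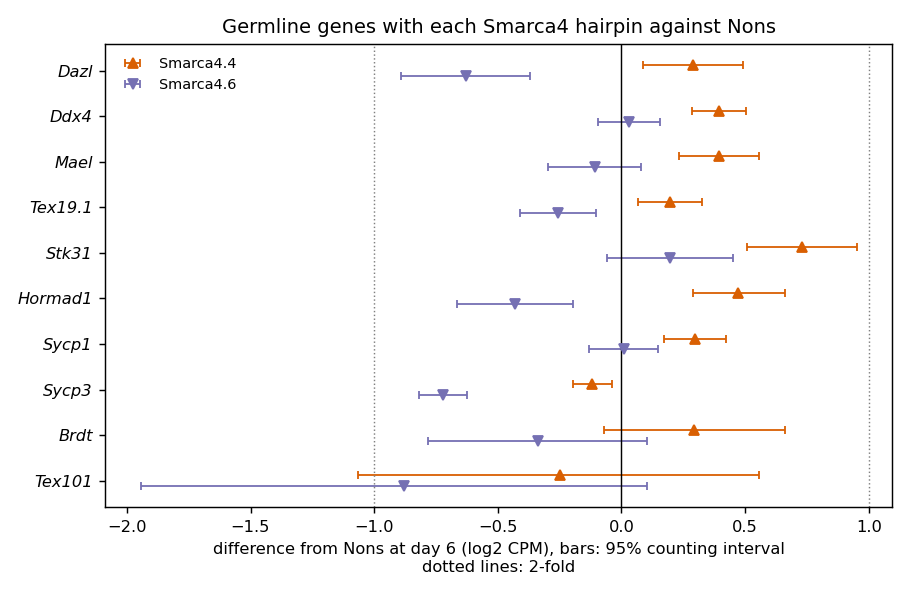
Log2 difference from Nons at day 6 (x axis) of each germline gene with Smarca4.4 (orange) and Smarca4.6 (purple), 1 library each, with exact 95% counting intervals as bars and dotted lines at 2-fold. Every point lies inside 2-fold, and the purple point lies to the left of the orange one for all 10 genes.

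The 5 genes that had fallen stayed below their day 0 level with either hairpin, Brdt by the least. Dazl stood at 1.24% (1.13% to 1.37%) of day 0 with Smarca4.4 and at 0.658% (0.566% to 0.760%) with Smarca4.6. Hormad1 stood at 6.71% and 3.59%, and Stk31 at 14.0% and 9.70%, where the Nons values were 4.83% and 8.45%. Tex19.1 stood at 14.8% and 10.8%, beside 12.9% in Nons. Brdt was at 56.8% and 36.7%, with 46.3% in Nons.

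The hairpin libraries were also compared directly, a comparison that was added after the opposite signs had been seen. Its values follow from the differences from Nons given above, so it restates them and is not an independent check. All 10 genes were higher in Smarca4.4 than in Smarca4.6, 9 of them with an interval above 0, where 44.2% and 21.9% of all genes tested were. The median log2 difference was 0.57, against -0.03 over all genes tested. It ranged from 0.29 (0.16 to 0.42) for Sycp1 to 0.92 (0.67 to 1.17) for Dazl. Tex101, at 0.63 (-0.38 to 1.71), was the 1 gene whose interval includes 0. Of the other germline genes, 22 of 27 were higher in Smarca4.4 than in Smarca4.6, with a median of 0.45. The direction was not particular to germline genes. Higher in Smarca4.4 were also 6 of 6 genes of the 2-cell-like state described below (median 0.84) and 7 of 10 ES cell markers (0.11). So were 6 of 8 primordial germ cell factors (0.26) and 6 of 8 mesenchymal and muscle markers (0.21), but only 6 of 17 repressors and 5 of 12 methylation genes. Smarca4 itself was lower in Smarca4.4 than in Smarca4.6, with a log2 difference of -0.40 (-0.45 to -0.35).

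The other germline genes were set beside Nons in the same way. In Smarca4.4, 23 of 27 were above Nons, with a median of 0.31, and 0 differed by 2-fold. In Smarca4.6, 19 of 27 were below Nons, with a median of -0.22, and 3 were at least 2-fold lower. Over all genes tested, 56.5% were above Nons in Smarca4.4 and 41.1% below it in Smarca4.6. Those 3 were Smc1b, a cohesin subunit of meiosis, at -1.29 (-1.64 to -0.95), and the testis tubulins Tuba3a and Tuba3b, near-identical copies, at -1.13 and -1.02. Above Nons with both hairpins, with intervals that exclude 0, were Tdrkh (0.77 in Smarca4.4 and 0.31 in Smarca4.6), Sycp2 (0.79 and 0.46) and Tex15 (0.71 and 0.30). So were Tdrd5 (0.45 and 0.49), Syce1 (0.30 and 0.61) and Syce2 (0.20 and 0.22). Of all genes tested, 24.8% were above Nons in both with such intervals. Below Nons in both with such intervals were 15.5% of all genes tested and none of the 27.

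More of the other germline genes passed 2-fold when the filter was 10 reads in the compared libraries together. In Smarca4.6, 9 of 36 were then lower and 2 higher, where 3.19% and 4.18% of all genes with that many reads were. In Smarca4.4, 4 of 37 were higher and 0 lower, where 4.42% and 2.36% were. The 6 added lower genes had 12 to 59 reads in Nons and 1 to 21 in Smarca4.6. They included Stra8 at -3.26 (-8.68 to -0.50), the dipeptidase gene Dpep3 at -3.10 (-5.04 to -1.64) and Figla, an oocyte transcription factor, at -2.30 (-3.83 to -1.04). In Smarca4.4 the same genes were at 0.07 (-1.18 to 1.33), -0.56 (-1.29 to 0.14) and -0.93 (-1.79 to -0.11). The rest of the added lower genes were, in Smarca4.4, at -0.90 (-1.57 to -0.25, Syce3), -0.63 (-1.64 to 0.34, Piwil4) and 0.30 (-0.21 to 0.82, Tex12). The 4 higher in Smarca4.4 were Nobox, Mei1, Tdrd6 and Tdrd9, with 2 to 9 reads in Nons, and Mei1 and Tdrd6 were the 2 higher in Smarca4.6. Tdrd6 had 4 reads with Nons, 12 with Smarca4.4 and 13 with Smarca4.6, and Mei1 had 6, 20 and 12. Both rest on few reads, and of their 4 intervals 2 include 0.

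Genes of the 2-cell-like state, a rare state of mESC cultures in which genes of the early embryo are read, were also read beside the germline genes. Leaving aside Eif1a, which is broadly expressed, the 9 such genes found summed to 2.47 CPM at day 0 and, at day 6, to 18.03 with Nons, 39.0 with Smarca4.4 and 21.04 with Smarca4.6. At day 0, 3 of the 9 were under 3 reads, and at day 6 all were above. All 9 had a higher value with Smarca4.4 than with Nons, and 3 of them, the Zscan4 copies Zscan4b, Zscan4c and Zscan4d, were past 2-fold. The lowest difference of the 9 was that of Tcstv3, at 0.03 (-0.63 to 0.68). Zscan4d, for one, was at 3.78 CPM with Nons, 10.6 with Smarca4.4 and 6.47 with Smarca4.6, a log2 difference from Nons of 1.49 (1.24 to 1.75) and 0.77 (0.49 to 1.07). Zscan4b and Zscan4c were 1.34 and 1.42 above Nons in Smarca4.4, and 0.18 (-0.17 to 0.53) and 0.23 (-0.12 to 0.58) in Smarca4.6. The Zscan4 copies are nearly identical, so reads may be split among them. Their part in the germline gene values was not tested.

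**Figure D5:**
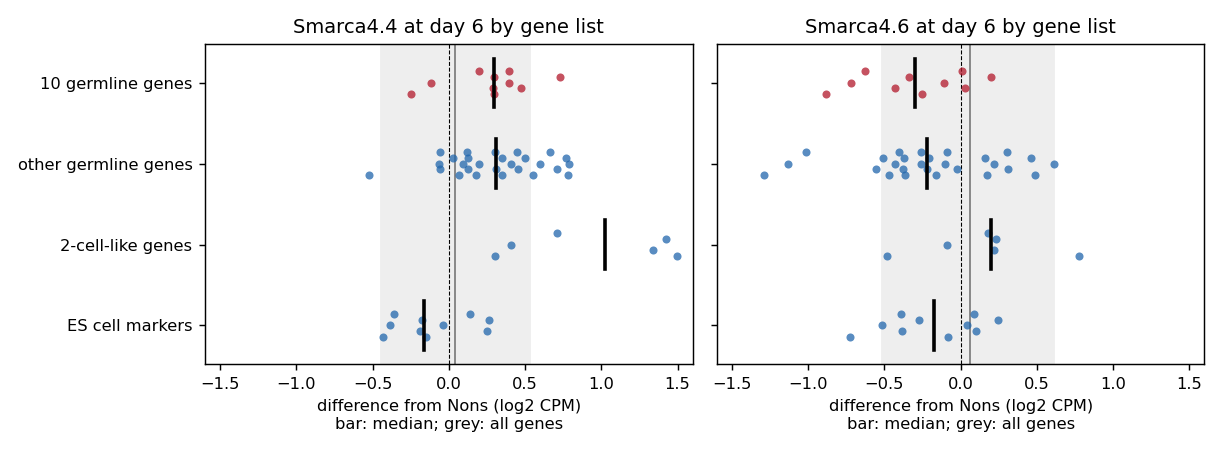
Log2 difference from Nons at day 6 (x axis), 1 point per gene, for Smarca4.4 (left) and Smarca4.6 (right) in 4 gene lists, with the list median as a black bar and the 5th to 95th percentile of all 13264 genes tested in grey. The median of the 10 germline genes (red) is 0.30 on the left and -0.30 on the right, and that of the other germline genes is 0.31 and -0.22.

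The methylation genes and repressors were read in the hairpin libraries too. Dnmt3b was above Nons in both, by 0.24 (0.22 to 0.27) with Smarca4.4 and by 0.64 (0.62 to 0.67) with Smarca4.6. Dnmt3l was at -0.07 (-0.10 to -0.03) and -0.94 (-0.99 to -0.89). Tet3 was above Nons by 0.84 and 0.73. None of the 12 methylation genes and none of the 17 repressors differed from Nons by 2-fold with either hairpin. Mga was at 0.15 in both libraries, E2f6 at 0.38 and 0.31, and Max at 0.27 and 0.46. Of the 17 repressors, 13 were above Nons with Smarca4.4 and 16 with Smarca4.6, where 56.5% and 58.9% of all genes tested were.

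Markers of ES cells and of mesenchyme and muscle were also set beside Nons in these libraries. The smooth muscle actin gene Acta2 was at 63.1 CPM with Nons, 30.9 with Smarca4.4 and 17.8 with Smarca4.6, the 1 marker of 8 past 2-fold with each hairpin, at -1.03 (-1.12 to -0.94) and -1.83 (-1.95 to -1.70). Over the 8 mesenchymal and muscle markers the median was -0.18 and -0.32, with 5 and 7 below Nons. Over the 10 ES cell markers it was -0.16 and -0.18, with 7 and 6 below Nons and 0 past 2-fold. Nanog was at -0.36 and -0.39, whereas 3 and 4 of the 10 were above Nons, Zfp42 among them at 0.26 and 0.09. Of all genes tested, 43.5% were below Nons with Smarca4.4 and 41.1% with Smarca4.6. Over 8 primordial germ cell factors the median was 0.12 and -0.02, with 0 past 2-fold, and 5 and 4 were above Nons and 3 and 4 below. Tfap2c was above Nons in both, at 0.78 (0.65 to 0.91) and 0.47 (0.33 to 0.62), as was Alpl, at 0.40 (0.21 to 0.60) and 0.60 (0.40 to 0.80). Prdm1 was at -0.07 (-0.28 to 0.14) and -0.45 (-0.70 to -0.21). The part of any of these marker lists in the germline gene values was not tested.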

How the data were processed

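Paired-end RNA-seq of 4 libraries was analysed. Per the labels and the methods of the study, the authors trimmed reads, aligned them with HISAT2 (tophat is also named) to mm10 with positions that differ between FVB/NJ and CAST/EiJ masked, and counted reads over exons in SeqMonk, with no strand setting given. The values the authors deposited are log2 CPM, with alleles combined. Whole reads were recovered from the spacing of the values, within 0.05 reads for 99.94% to 99.98% of nonzero values, while the deposited value for 0 reads equals 0.9 of a read. Depth was 18599402 reads (day 0), 45759793 (Nons), 47143739 (Smarca4.4) and 36495575 (Smarca4.6).

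Differences are between deposited log2 CPM values. Intervals are exact (Clopper-Pearson, 95%) and leave out all error but that of counting, reads without molecular identifiers not being independent. No test or count model was run, as each group holds 1 library. A gene counted as changed past 2-fold, and shares of all genes are over the 13264 with a mean log2 CPM of at least 0. Exon lengths came from GENCODE M21 (GRCm38, the mm10 assembly), promoters from RefSeq GRCm38.p6, and hairpin sequences from the oligo table of the study. Genes named are the 10, Smarca4 and, from 8 further lists, up to 4 with the largest change to day 6 and up to 4 past 2-fold with both hairpins. Outside that rule, other germline genes past 2-fold with a hairpin were named, namely Smc1b, Tuba3a, Tuba3b, Dpep3, Figla, Syce3, Piwil4, Tex12, Nobox and Tdrd9. Tdrkh, Sycp2, Tex15, Tdrd5, Syce1 and Syce2 were named for lying above Nons with both hairpins. The repressor and methylation lists could be named freely. Chpt1, Nanog, Pou5f1, Nanos3, Itgb3, Dnd1, Tfap2c, Prdm1, Eif1a, Wt1 and the Zscan4 genes were added for the reasons given. The genes, lists and comparisons were chosen with earlier results of these data known. The computations were tested on simulated reads. Alternatives were log2(CPM + 1), centring by the median of autosomal genes, filters on level or reads, and an interval that excludes 0. Scripts ran in Python 3.11.15 with pandas 2.3.3, scipy 1.17.1, numpy 2.4.6 and, for plots, matplotlib 3.10.9.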

Additional observations from a re-analysis of the deposited data

Results flagged for a closer look

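For 3 of the 10 germline genes the 2 hairpin libraries lay on opposite sides of Nons, each with a counting interval that excludes 0. The log2 differences from Nons in Smarca4.4 and Smarca4.6 were 0.29 and -0.63 for Dazl, 0.47 and -0.43 for Hormad1, and 0.20 and -0.26 for Tex19.1. Each hairpin is 1 library, so the difference between hairpins was not tested against replicates.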

How the results depend on the processing

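No paired analysis was possible because with 1 library a group the shared replicate number pairs nothing, and for the same reason no replicate could be left out. The 7 genes past 2-fold between day 0 and Nons were 6 with a pseudocount of 1 CPM, Brdt being the one lost, and 7 under centring on the autosomal median, either filter or the demand for an interval that excludes 0. The counts of 0 with each hairpin and with both were 0 under each of these. The 13 other germline genes lower at day 6 became 15 among genes with at least 10 reads. The same filter took those past 2-fold against Nons from 0 to 4 higher in Smarca4.4, and from 3 to 9 lower and 0 to 2 higher in Smarca4.6, the added genes having 2 to 59 reads in Nons. It also raised the 2-cell-like genes higher at day 6 from 5 to 8 and the testis somatic markers past 2-fold at day 6 from 1 higher to 4 higher and 2 lower. Testis somatic markers at least 2-fold higher in Smarca4.6 than in Nons went from 0 to 1. The median level at day 0 was 8.28 CPM per kb of exon union and 8.44 per kb of the longest transcript, and the E-box share was 8.47% of promoters of genes passing the filter, against 6.02% of all. Of single differences, centring turned the sign of Ddx4 (-0.031) and Sycp1 (-0.053) in Smarca4.6, and the pseudocount took Dazl (-6.45) and Stk31 (-3.36) from day 0 to Nons outside their intervals. By construction a pseudocount shrinks low values.

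Depth limits Tex101 and Brdt, whose hairpin intervals against Nons all include 0. The absence of replicates limits every value here.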
